A study of Drosophila melanogaster with 6 samples.

Results

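The odorant-binding protein genes of Drosophila melanogaster were the genes whose current symbol is Obp followed by a number and letters, together with lush, which was once named Obp76a. The gene table of the Release 6 assembly held 52 such genes, and 48 of them, out of 11982 genes in all, could be read from a probe set that names no second gene. The other 4 were not analysed here. Obp50b, Obp50c and Obp57d had only probe sets annotated to several genes, and no probe set was paired with Obp83a. RNA of whole adult flies was hybridised to Affymetrix Drosophila Genome 2.0 arrays, 1 array for each of 6 samples of 25 males and 25 females. In 3 samples (GAL4xUAS) the flies came from a cross of da-GAL4 with a UAS-AMP line, so that a driver under the promoter of daughterless, a gene active in most tissues, switches on an antimicrobial peptide transgene. In the other 3 (UAS) the flies were of the UAS-AMP stock, which carries the same transgene without the driver. The labels do not name the peptide or the age of the flies, and no flies with the driver alone were analysed here, so the peptide, the driver and the chromosomes of the driver stock cannot be told apart. Whether replicates were separate cultures is not stated in the labels, so the p-values rest on a spread among samples that may be technical.

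Odorant-binding proteins are small secreted proteins whose fold is held by disulphide bridges around a pocket for hydrophobic molecules. Support cells of the antennal sensilla release some of them into the fluid around olfactory neurons, where they meet odorants and pheromones before the membrane receptors do. Other members are made in taste organs, in glia, in the gut or fat body, or in the male reproductive tract, from where they reach the female with the seminal fluid. Many members lie side by side in the genome, and the number in the symbol is the cytological band of the locus.

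The 48 measured genes lay mostly on chromosome arm 2R, with 26 there, 11 on 3R, 6 on X, 3 on 3L and 2 on 2L. Values are probe set signals on a linear scale, as deposited. Median signals over all probe sets were 831 ± 68.1 in the GAL4xUAS arrays and 858 ± 9.62 in the UAS arrays (SD, n = 3 each), and arrays of 1 group correlated at 0.946 to 0.958 in log2 signal, against 0.945 to 0.953 for arrays of different groups. The background limit of an array was set at the 95th percentile of the 27 Bacillus control probe sets, and lay at 110 ± 14.7 in the GAL4xUAS arrays and 108 ± 15.4 in the UAS arrays (SD, n = 3 each). The lists of egg and yolk genes and of male accessory gland and duct genes, which mark the 2 sexes in whole flies, were above this limit on all arrays in 12 of 12 and 18 of 18 measured genes. The number of arrays, 6, limits the precision of every value below, and in whole flies fewer cells of a type and less RNA per cell cannot be told apart.

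No odorant-binding protein gene passed the test between the cross and the UAS stock. With limma, a prior variance that follows the signal and Benjamini-Hochberg adjustment over 18769 probe sets, 0 of 48 genes passed an adjusted p of 0.05, where 0.868% of all genes and 0.783% of all probe sets did. At an unadjusted p under 0.05 there were 7 members (14.6%), against 13.8% of all genes, and the groups did not overlap in 8 members (16.7%), against 19.8% of all genes. Both shares are near those of all genes. By direction, 2 members were at an unadjusted p under 0.05 and higher in the cross (4.63% of all genes), and 5 were lower (9.18% of all genes). Without overlap, 2 were higher and 6 lower, against 6.72% and 13.1% of all genes. With a constant prior 0 members passed as well, as did 0.0% of all genes, and 7 were at an unadjusted p under 0.05, against 10.5% of all genes. Of the 48 members 20 were higher and 28 lower, and their log2 fold changes had a median of -0.07, while 5963 of 11982 genes were higher and 6019 lower. The smallest adjusted p among the members, 0.0581, was that of Obp56a.

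What the arrays could resolve differed widely between members. The signals of 33 members were above background on all 6 arrays, and for 21 of these the 95% interval of the log2 fold change lay between -1 and 1, so a 2-fold difference in either direction was outside it. The other 12 had wider intervals or, as for Obp56a and lush, intervals that reach beyond 1 of those bounds. Of the 15 members that were not above background on all arrays, none had an interval inside these bounds, and the median width of their intervals was 4.0 on the log2 scale, against 0.84 for the 33.

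**Figure D1:**
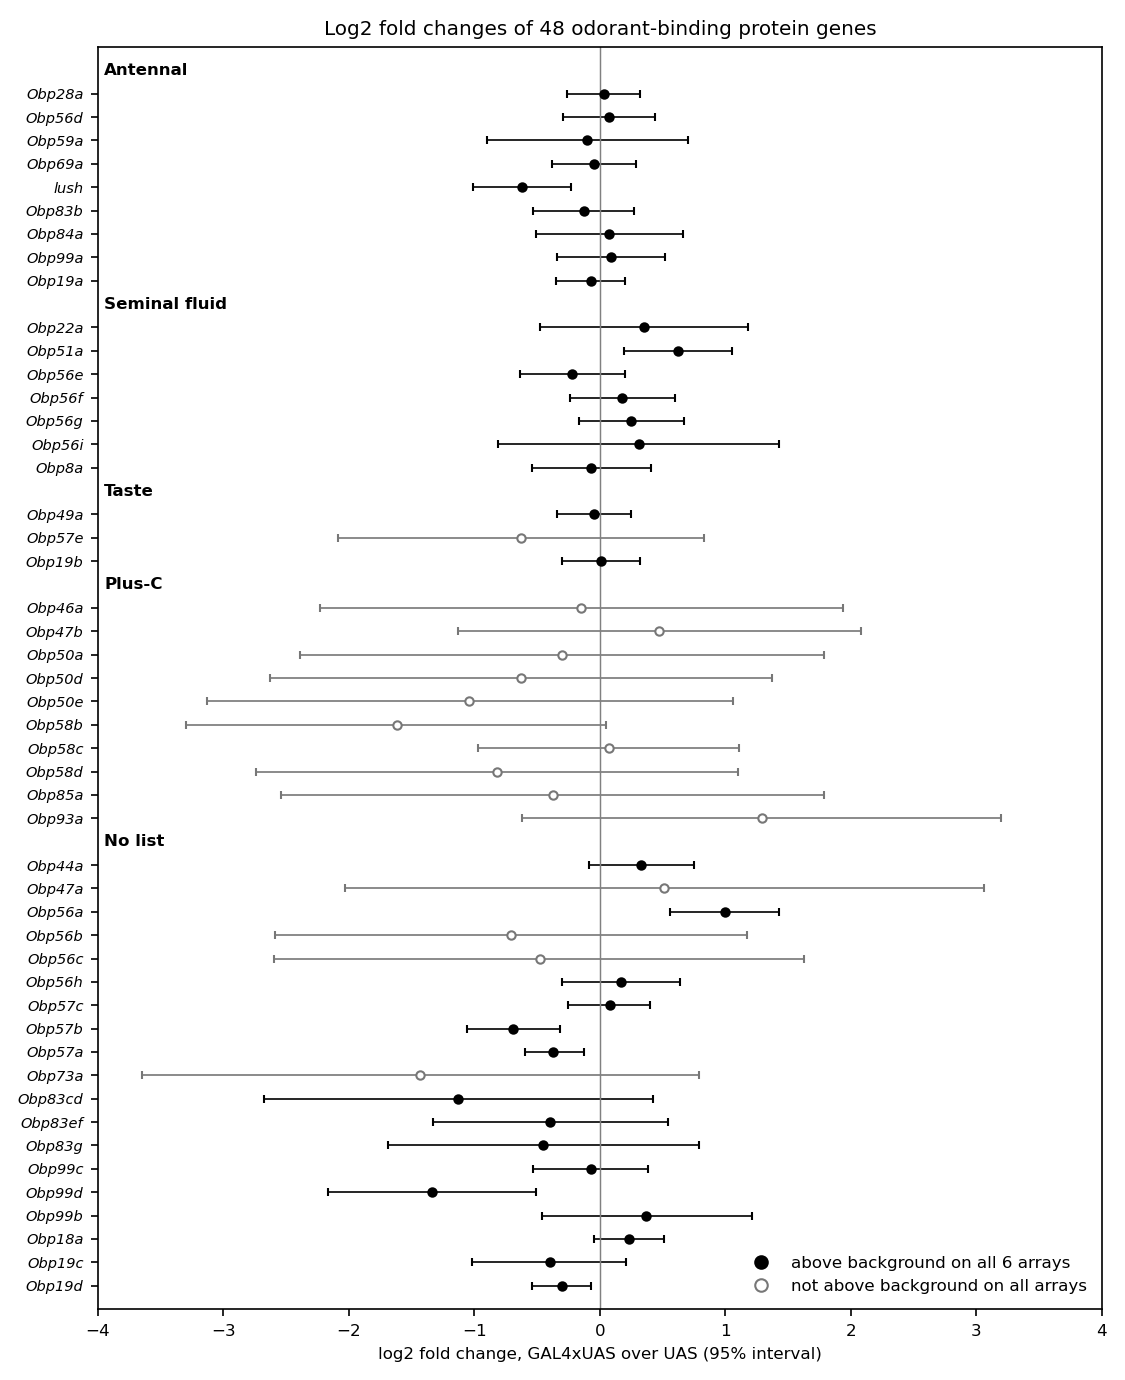
Log2 fold changes, GAL4xUAS over UAS (x axis), of the 48 measured odorant-binding protein genes (y axis, by role and then by chromosome arm and position), as fitted by limma with 95% intervals, n = 3 arrays each. Filled points are the 33 genes above background on all 6 arrays, open points the 15 others, whose intervals are wide. The intervals of 7 genes, all with filled points, do not include 0.

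The antennal members lay close between the groups, apart from lush. This list held 10 genes whose proteins are abundant in the antenna, and 9 were measured, all above background on every array. Their median log2 fold change was -0.05, with 4 higher and 5 lower, and 8 of the 9 intervals lay between -1 and 1. The gene lush encodes the protein needed for the response of antennal neurons to the male pheromone cis-vaccenyl acetate. It had signals of 771, 791 and 791 in the GAL4xUAS arrays, against 1108, 1375 and 1155 in the UAS arrays. The 3 GAL4xUAS arrays lay within a narrow range below all UAS arrays. This was 1.54-fold lower, a log2 fold change of -0.62 (SE 0.17, 95% interval -1.01 to -0.23), which did not pass (limma adjusted p = 0.176).

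Among the other antennal genes the groups overlapped. Obp28a, one of the abundant antennal proteins, had signals of 2797, 3105 and 3518 in the GAL4xUAS arrays, against 2981, 3198 and 2991 in the UAS arrays, a log2 fold change of 0.03 (SE 0.13, 95% interval -0.26 to 0.32). Obp19a had signals of 2563, 2800.4 and 2644 in the GAL4xUAS arrays, against 2725, 2714 and 2994 in the UAS arrays, and its log2 fold change was -0.07. A further probe set of Obp19a gave -0.03. For both genes the 95% interval included 0, and that of the brighter Obp19a probe set ran from -0.35 to 0.2. Obp69a, linked to responses to the same pheromone as lush, had signals of 2657, 2559 and 2539 in the GAL4xUAS arrays, against 2357, 2512 and 3214 in the UAS arrays (log2 fold change -0.05). Obp83b, also known as OS-E, had signals of 4883, 4836 and 3919.6 in the GAL4xUAS arrays, against 4074, 4639.5 and 6455 in the UAS arrays (log2 fold change -0.13). The third UAS array was the highest for both genes. Obp56d had signals of 21134, 19351 and 14955 in the GAL4xUAS arrays, against 15691, 16100.3 and 20827 in the UAS arrays, with a log2 fold change of 0.07. Obp99a had signals of 8697, 7109 and 5865 in the GAL4xUAS arrays, against 8362, 6764 and 5327 in the UAS arrays, with a log2 fold change of 0.09. Obp84a and Obp59a, the second of which is needed for the sensing of humidity, were dimmer and less certain. Obp84a had signals of 674, 796 and 573 in the GAL4xUAS arrays, against 463, 743 and 771 in the UAS arrays, with a log2 fold change of 0.07 (SE 0.26, 95% interval -0.51 to 0.66). For Obp59a the signals were 245, 218 and 212 in GAL4xUAS flies and 289.9, 298 and 161 in UAS flies, with a log2 fold change of -0.10 (SE 0.35, 95% interval -0.90 to 0.70). This Obp59a probe set is of a kind that can read more than 1 transcript. The other one lay below the background limit on all arrays, and the log2 fold change was -1.10 from it alone and -0.60 from the mean of both.

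Both taste genes that were above background on all arrays lay close between the groups. Obp49a is released near sugar-sensing neurons, where it takes part in the suppression of sweet responses by bitter compounds. It had signals of 2042, 1973 and 2119 in the GAL4xUAS arrays, against 2173, 1984 and 2192 in the UAS arrays. The groups overlapped, and the log2 fold change was -0.05 (SE 0.13, 95% interval -0.34 to 0.25). Obp19b, a protein of taste sensilla of the labellum, had signals of 2183, 2078 and 1842 in the GAL4xUAS arrays, against 2063, 1973 and 2004 in the UAS arrays, a log2 fold change of 0.01 (SE 0.14, 95% interval -0.30 to 0.32). Obp57e, which is linked with Obp57d to taste responses to fatty acids, was not above background on any GAL4xUAS array and was so on 1 UAS array. Its signals were 57.9, 72.4 and 35.6 in GAL4xUAS flies and 136, 77.9 and 53.4 in UAS flies, and no bound above 1 on the fold could be set.

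Members of the seminal fluid were mostly higher in the cross, and their median depended on 1 array. This list held 7 genes, Obp8a, Obp22a, Obp51a, Obp56e, Obp56f, Obp56g and Obp56i, all measured and above background on every array. Of these 5 were higher and 2 lower, with a median of 0.25 on the log2 scale, which was 0.01 without GAL4xUAS replicate 2. That array held the highest signal of 5 of the 7 genes, while it did so for 20.1% of all genes.

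Obp51a had the largest log2 fold change of the list. It had signals of 14813, 19622 and 13246 in the GAL4xUAS arrays, against 9094, 8881 and 13105 in the UAS arrays. All GAL4xUAS arrays lay above all UAS arrays, but the lowest GAL4xUAS signal, at 13246, was close to the highest UAS signal, at 13105. This was 1.54-fold higher, a log2 fold change of 0.62 (SE 0.19, 95% interval 0.19 to 1.05), and did not pass (limma adjusted p = 0.208). Without GAL4xUAS replicate 2 the log2 fold change was 0.46. Obp56g, needed for the mating plug to form in mated females, had signals of 33560.4, 51072 and 35272 in the GAL4xUAS arrays, against 29507, 30064 and 40353 in the UAS arrays. The second GAL4xUAS array stood above the other 5, which ran from 29507 to 40353, and the log2 fold change was 0.25 (SE 0.19, 95% interval -0.17 to 0.67). Obp22a had signals of 1833, 2539 and 879 in the GAL4xUAS arrays, against 1164, 989 and 1719.8 in the UAS arrays. Obp56f had signals of 2221, 2988 and 1997 in the GAL4xUAS arrays, against 2191, 1763 and 2351 in the UAS arrays. Obp56i had signals of 449, 948 and 219.8 in the GAL4xUAS arrays, against 319, 286 and 536 in the UAS arrays. In these 3 genes too the second GAL4xUAS array was the highest and the groups overlapped, with log2 fold changes of 0.35, 0.18 and 0.31. Obp56e went the other way, lowest in the second GAL4xUAS array, with signals of 5427, 4402 and 7107 in GAL4xUAS flies and 6850.1, 7239.8 and 5411 in UAS flies and a log2 fold change of -0.22. Obp8a had signals of 618, 882 and 797 in the GAL4xUAS arrays, against 782, 712 and 894 in the UAS arrays, a log2 fold change of -0.07.

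Marker genes of the male accessory gland and ejaculatory duct followed the same order of arrays as these members in their medians. This list also holds Ebp and EbpII, which are named as ejaculatory bulb proteins. Of 19 listed, 18 were measured, none was at or below background on any array, 16 were higher and 2 lower, where 49.8% of all genes were higher, and the median log2 fold change was 0.22. Of the 18, 1 passed, where 0.868% of all genes did, and this was Dup99B, whose product is a peptide of the ejaculatory duct (limma adjusted p = 0.0322). Their summed signals ranged from 475010 to 697512 in the GAL4xUAS arrays and from 397636 to 535289 in the UAS arrays. GAL4xUAS replicate 2 held the highest signal of 17 of the 18, and UAS replicate 2 the lowest of 15. On GAL4xUAS replicate 2 the median deviation from the 6-array mean was 0.51 on the log2 scale for the seminal Obp genes and 0.53 for the gland and duct genes. In the third UAS array, the highest of its group, the medians were 0.17 and 0.13. The egg and yolk genes, which mark females, had another order. Of 12 measured, 10 were lower and 2 higher, none passed, and the median log2 fold change was -0.17. Their median deviations were -0.34, -0.60 and 0.63 in the GAL4xUAS arrays, against 0.52, -0.11 and 0.13 in the UAS arrays. The median was thus lowest in GAL4xUAS replicate 2, but this did not hold for every gene. By gene, the lowest signal was in GAL4xUAS replicate 1 for Yp1, Yp2, Yp3, Cp15, Cp18, Vm32E and Vm34Ca. It was in GAL4xUAS replicate 2 for Cp16, Cp19, Cp36, Cp38 and Vm26Aa. The summed signals of the egg and yolk genes ranged from 449171 to 842517 in the GAL4xUAS arrays and from 568550 to 791930 in the UAS arrays. The labels give equal numbers of males and females for every sample. The part of both marker lists in the seminal values was not tested.

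**Figure D2:**
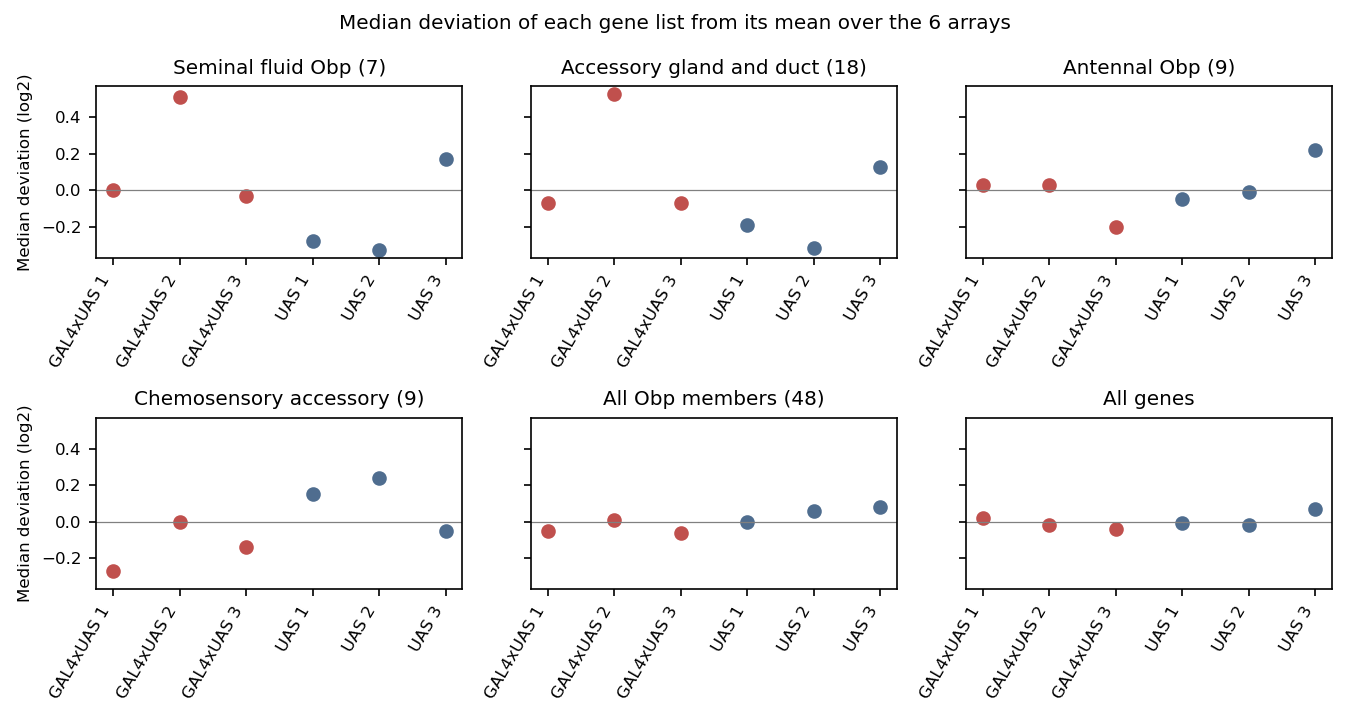
Median over the genes of a list of the deviation of each gene's log2 signal from its mean over the 6 arrays (y axis, log2 units), for each array (x axis, GAL4xUAS in red, UAS in blue). The seminal fluid Obp genes and the accessory gland and duct genes share their order of high and low arrays, with GAL4xUAS replicate 2 at 0.51 and 0.53. The 48 Obp genes together stay between -0.06 and 0.08.

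Among members outside these lists, the Obp56 cluster on 2R held the gene with the smallest adjusted p of the family. Obp56a, the first gene of the row Obp56a to Obp56i, had signals of 4464, 3853 and 3100.3 in the GAL4xUAS arrays, against 1732, 2402 and 1609 in the UAS arrays. Every GAL4xUAS array lay above every UAS array, with a gap between 3100.3 and 2402. It was 2.00-fold higher, with means of 3806 ± 683 in GAL4xUAS flies and 1914 ± 427 in UAS flies (SD, n = 3 each) and a log2 fold change of 1.0 (SE 0.19, 95% interval 0.56 to 1.43). It missed the threshold (limma adjusted p = 0.0581) and passed it when each array was centred on its median (limma adjusted p = 0.028). Over the 15 alternatives its log2 fold change ranged from 0.87 to 1.17 and its adjusted p from 0.028 to 0.317.

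The neighbours of Obp56a had other values. Obp56b lay at or below background on all arrays, with signals of 21.2, 55.2 and 20.5 in GAL4xUAS flies and 19.0, 51.0 and 111 in UAS flies. Obp56c was above it on 1 array of each group, with signals of 119.6, 25.6 and 18.1 in GAL4xUAS flies and 148, 31.7 and 33.4 in UAS flies. Obp56d, next in the row, had a log2 fold change of 0.07, with overlapping groups as given above. Obp56h, further along, had signals of 662, 554 and 529 in the GAL4xUAS arrays, against 509, 499 and 539.5 in the UAS arrays, a log2 fold change of 0.17. A knockdown of Obp56h is known to alter mating behaviour and cuticular hydrocarbons of males. Over all 9 genes of the cluster 6 were higher and 3 lower, from -0.71 to 1.0. No test of the difference between Obp56a and its neighbours was made.

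In the Obp57 cluster, also on 2R, a pair of adjacent genes had lower signals in the cross, and their neighbour Obp57c overlapped. Obp57b had signals of 2311, 2933 and 1979 in the GAL4xUAS arrays, against 3454, 3926 and 4139.8 in the UAS arrays. It was 1.61-fold lower, with a log2 fold change of -0.69 (SE 0.16, 95% interval -1.06 to -0.32; limma adjusted p = 0.116). Obp57a had signals of 7285, 6760.0 and 7196 in the GAL4xUAS arrays, against 8764, 8804 and 9817 in the UAS arrays. This was 1.29-fold lower, with a log2 fold change of -0.37 (SE 0.10, 95% interval -0.60 to -0.13; limma adjusted p = 0.177). In both genes the groups were apart and neither passed. Obp57c, which lies on the other side of Obp57b from Obp57a, had signals of 9829, 8131 and 7099 in the GAL4xUAS arrays, against 6869, 8452 and 8358 in the UAS arrays, with a log2 fold change of 0.08 (SE 0.15, 95% interval -0.25 to 0.40). Over the 15 alternatives Obp57b kept a log2 fold change between -0.84 and -0.56 and Obp57a one between -0.39 and -0.31, and neither passed in any.

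On the X chromosome the 4 genes of the Obp19 cluster were adjacent in the gene table. Obp19d had signals of 22031, 22959 and 20113 in the GAL4xUAS arrays, against 26659, 25999 and 27639.6 in the UAS arrays. The groups were apart by little, 1.23-fold, with a log2 fold change of -0.30 (SE 0.10, 95% interval -0.54 to -0.07; limma adjusted p = 0.267). Its probe set is of a kind that can read more than 1 transcript. Obp19c, its neighbour, had signals of 1435, 1357 and 2849 in the GAL4xUAS arrays, against 2697, 2313 and 2064 in the UAS arrays. The third GAL4xUAS array was above all UAS arrays and the other 2 below them, so the groups overlapped, with a log2 fold change of -0.40 (SE 0.27, 95% interval -1.02 to 0.21). This Obp19c probe set can also read more than 1 transcript. A further probe set of Obp19c was above background on only 2 arrays and gave -0.35 (95% interval -2.89 to 2.19). Obp19a and Obp19b, the other genes of the row, are described above. Obp18a, elsewhere on the X, had signals of 5125, 4727 and 5659.7 in the GAL4xUAS arrays, against 4257, 4945 and 4042 in the UAS arrays, with a log2 fold change of 0.23 (SE 0.13, 95% interval -0.05 to 0.51).

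**Figure D3:**
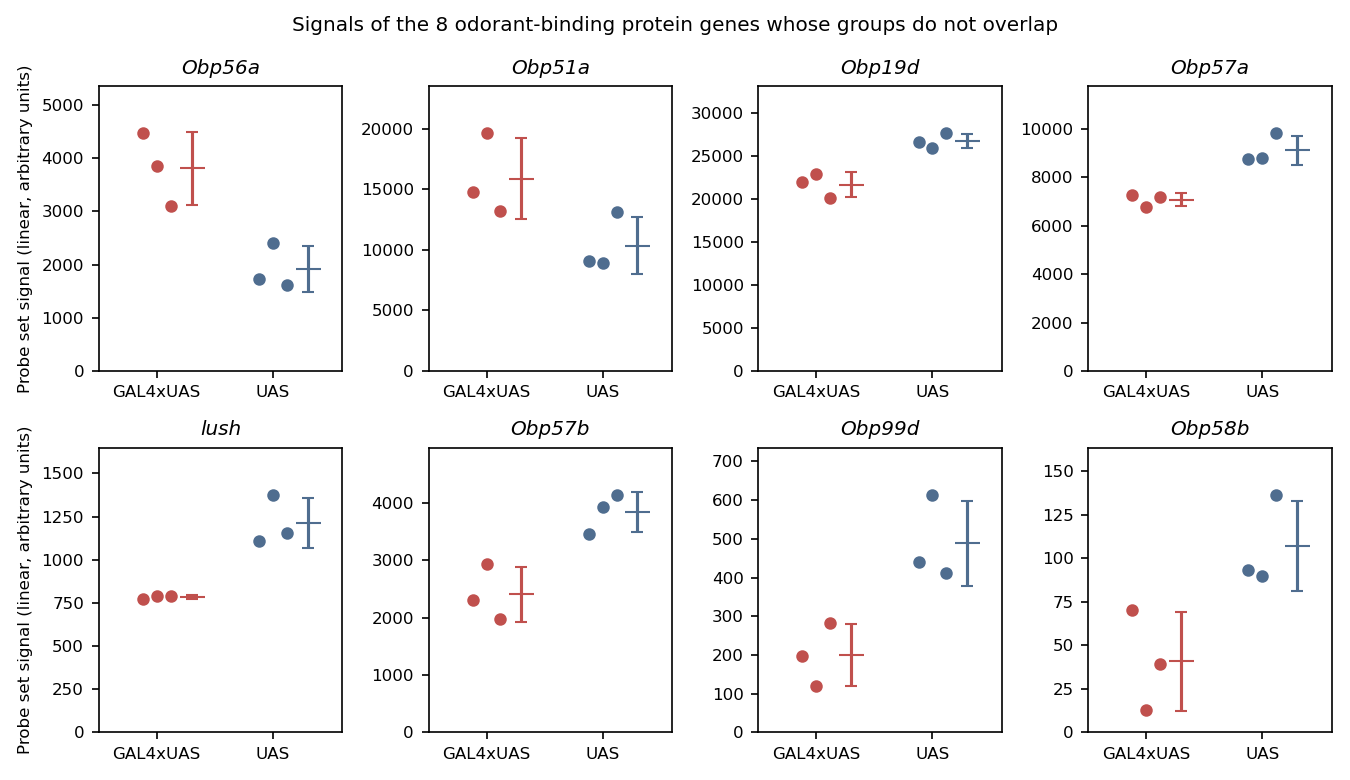
Probe set signals on a linear scale (y axis) of the 8 members whose groups do not overlap, GAL4xUAS in red and UAS in blue, with 1 point per array and the mean ± SD beside them (n = 3 each). Obp56a and Obp51a are higher in GAL4xUAS flies and the other 6 lower. Obp58b lies near the background limit of about 110 and none of the 8 passed the test.

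The Obp99 cluster on 3R includes genes of the Minus-C type, which lack some of the conserved cysteines. Dup99B lies between Obp99d and Obp99b in the gene table. Obp99d had signals of 198, 121 and 282 in the GAL4xUAS arrays, against 441, 613 and 411 in the UAS arrays. All GAL4xUAS arrays were below all UAS arrays. The log2 fold change was -1.34 (SE 0.37, 95% interval -2.17 to -0.51), 2.54-fold lower, and did not pass (limma adjusted p = 0.167). Obp99c had signals of 27796, 31869.9 and 43227 in the GAL4xUAS arrays, against 37225, 43279 and 27684 in the UAS arrays, a log2 fold change of -0.07. Obp99b had signals of 1719, 1763 and 2936 in the GAL4xUAS arrays, against 1460.1, 2885 and 973 in the UAS arrays. For both the third GAL4xUAS array and the second UAS array were the highest of their groups, and Obp99b had a log2 fold change of 0.37 (SE 0.37, 95% interval -0.46 to 1.21). Obp99a is among the antennal genes above.

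The Obp83 cluster on 3R held the members that varied most between arrays of one group among those above background on all arrays. Among members above background on all arrays, the largest pooled SDs of log2 signal were those of Obp83cd (1.15), Obp83g (0.87) and the seminal Obp56i (0.82), against a median of 0.35 over all 48 members and 0.24 over all genes. Obp83cd and Obp83ef encode proteins with a doubled domain. Obp83cd had signals of 126, 365 and 661 in the GAL4xUAS arrays, against 708, 1426 and 315 in the UAS arrays. The lowest array was a GAL4xUAS one and the highest a UAS one, with overlap between, and the log2 fold change was -1.13 (SE 0.68, 95% interval -2.68 to 0.42). It was -0.47 without GAL4xUAS replicate 1 and -0.60 without UAS replicate 2. Obp83g had signals of 577, 1129 and 2213 in the GAL4xUAS arrays, against 1601, 2551 and 903 in the UAS arrays, with a log2 fold change of -0.45 (SE 0.53, 95% interval -1.69 to 0.79), which was 0.03 without GAL4xUAS replicate 1 and -0.09 without UAS replicate 2. Obp83ef was high in the second UAS array alone, at 751, and between 247 and 317 in the other 5 arrays, and its log2 fold change was -0.40 (SE 0.41, 95% interval -1.33 to 0.54).

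Of the 4 fat body genes 3 shared some of this order of arrays. Fbp1, whose product is a receptor of larval serum proteins, had signals of 77.1, 740.4 and 489 in the GAL4xUAS arrays, against 1200.1, 3180.4 and 34.4 in the UAS arrays. Lsp2, a larval serum protein gene, had signals of 634, 2449 and 1489 in the GAL4xUAS arrays, against 3797, 6174 and 429 in the UAS arrays. Fbp2, a fat body protein gene, had signals of 272, 619.6 and 565 in the GAL4xUAS arrays, against 1049, 3946 and 143 in the UAS arrays. In all 3 the second UAS array was the highest and the third UAS array the lowest, and within the cross the first array was the lowest, as it was for Obp83cd and Obp83g. The orders were not the same throughout, since the highest array of the cross was the second for these 3 genes and the third for Obp83cd and Obp83g, whose lowest array of all was the first of the cross. The last gene of the list, apolpp, which encodes the lipid carrier of the haemolymph, had the second UAS array as the lowest of its group, with signals of 49572, 55839.8 and 61494 in GAL4xUAS flies and 59061, 54268 and 59945 in UAS flies. The summed signals of these 4 genes ran from 50555 to 64038 in the GAL4xUAS arrays and from 60552 to 67568 in the UAS arrays. On every array most of the sum was apolpp, so the sums do not show the spread of Fbp1, Fbp2 and Lsp2. Fbp1 was at or below the background limit on the first GAL4xUAS and the third UAS array, and none of the other 3 was so on any array. The part of these genes in the Obp83 values was not tested.

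**Figure D4:**
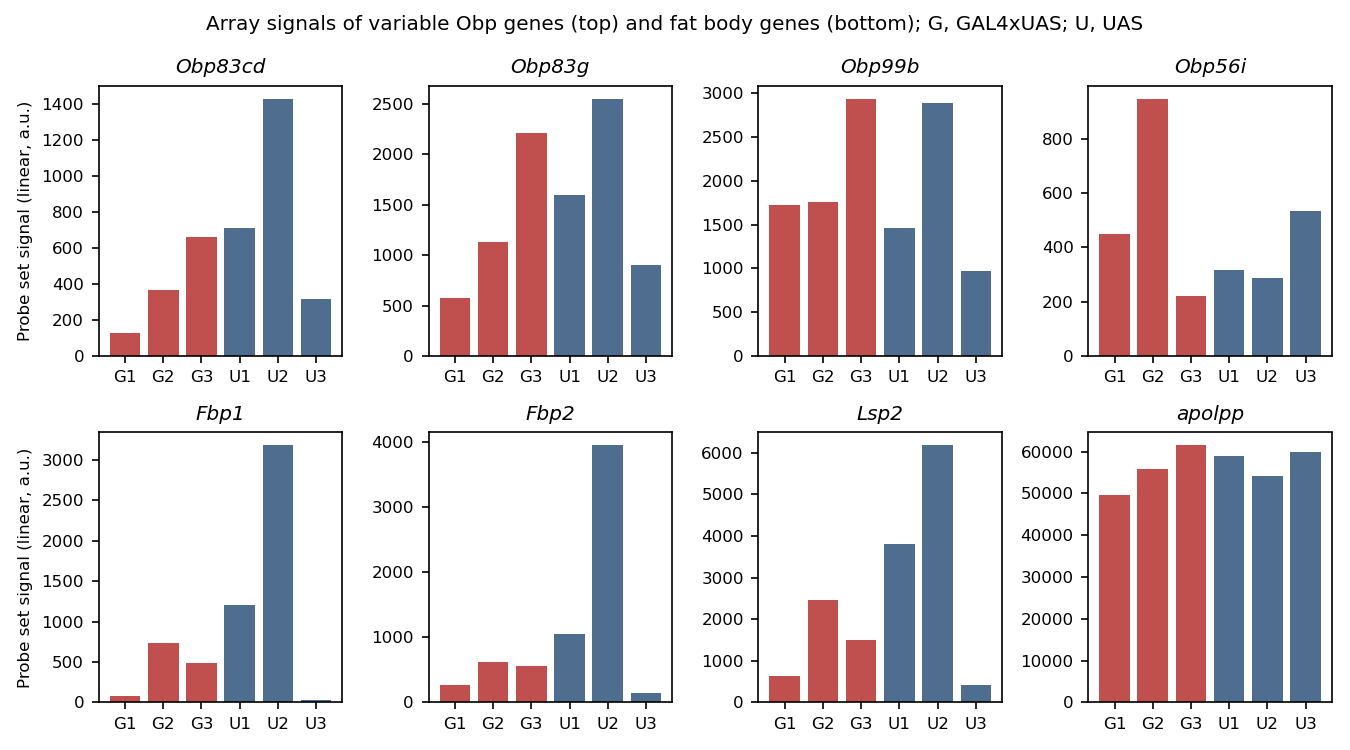
Array signals on a linear scale (y axis, bars from 0) for 4 variable members (top) and the 4 fat body genes (bottom), with GAL4xUAS replicates 1 to 3 (G1 to G3, red) and UAS replicates 1 to 3 (U1 to U3, blue) on the x axis. Obp83cd, Obp83g, Fbp1, Fbp2 and Lsp2 are highest in U2, and Obp56i is highest in G2. Obp99b, which ranks 4 by pooled SD among members above background on all arrays, was added after its values were seen.

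Obp44a, a protein of glia, had signals of 30187, 47468 and 40238 in the GAL4xUAS arrays, against 27859, 37511 and 27834 in the UAS arrays. The first GAL4xUAS array lay inside the range of the UAS arrays, and the log2 fold change was 0.33 (SE 0.19, 95% interval -0.09 to 0.75).

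The Plus-C members, which carry more conserved cysteines than the others, were at the edge of detection in whole flies. Of 13 in the list 11 were measured, and 1 of them, the taste gene Obp49a, was above background on all arrays. The other 10 were Obp46a, Obp47b, Obp50a, Obp50d, Obp50e, Obp58b, Obp58c, Obp58d, Obp85a and Obp93a. Of all 11, 8 were lower and 3 higher, with a median log2 fold change of -0.30, and in the dimmest of 3 equal groups of genes by mean signal 59.4% were lower and the median was -0.14. The median of the Plus-C genes was -0.70 without UAS replicate 1 and -0.02 without UAS replicate 3. Obp58b had signals of 70.1, 13.1 and 39.4 in the GAL4xUAS arrays, against 93.2, 90.1 and 136 in the UAS arrays. The groups were apart, but only the third UAS array was above background, so no bound above 1 on the fold could be set (limma adjusted p = 0.417). Obp58c was above background on 2 arrays of each group, with signals of 130.4, 110.3 and 195 in GAL4xUAS flies and 98.4, 178 and 138 in UAS flies. Obp93a was above background on 2 GAL4xUAS arrays and no UAS array, with signals of 104, 50.2 and 137 in GAL4xUAS flies and 68.1, 10.8 and 60.9 in UAS flies, and no bound above 1 on its fold could be set (limma adjusted p = 0.563).

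All 15 members that missed the background limit on some array had signals between 7.8 and 251.6. They were the 10 dim Plus-C genes with Obp47a, Obp56b, Obp56c, Obp57e and Obp73a, and 3 of them, Obp46a, Obp47b and Obp56b, were not above background on any array. In 7 no GAL4xUAS array was above it, in 1 no UAS array was, and in 4 some arrays of each group were. Obp73a was not above background on any GAL4xUAS array and was so on 1 UAS array, with signals of 7.8, 96.9 and 94.7 in GAL4xUAS flies and 210.1, 75.8 and 98.9 in UAS flies. The signals of the groups overlapped, and the only array above background was UAS replicate 1, so no fold is given (limma adjusted p = 0.583). For Obp47a the signals were 129, 19.8 and 203 in GAL4xUAS flies and 89.7, 157 and 12.2 in UAS flies, with wide overlap. The 11 lower and 4 higher among the 15 were not read as changes.

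The membrane receptors that act after these proteins were mostly not above background on all of these whole-fly arrays. Odorant receptor (Or) genes had 57 of 60 measured, of which 3 were above background on all arrays, gustatory receptor (Gr) genes 56 of 60, of which 4 were, and ionotropic receptor (Ir) genes 53 of 66, of which 3 were. Among the odorant-binding protein genes 33 of 48 were. No gene of the 3 receptor families passed the test, where 0.868% of all genes did. At an unadjusted p under 0.05 there were 8 Or genes (3 higher and 5 lower), 4 Gr genes (1 higher and 3 lower) and 4 Ir genes (1 higher and 3 lower), or 14.0%, 7.14% and 7.55%, against 13.8% of all genes. The median log2 fold changes were -0.45 for Or, -0.21 for Gr and -0.21 for Ir genes, few of which were above background on all arrays. Or10a, the receptor gene with the smallest adjusted p (0.0777 by limma), had signals of 3.1, 17.0 and 4.6 in GAL4xUAS flies and 71.9, 98.2 and 138 in UAS flies, with no GAL4xUAS array above background.

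Of 10 other chemosensory genes expressed in antennae or related to antennal proteins, 9 were measured, all above background on every array. None passed, 2 were higher and 7 lower around a median of -0.16 on the log2 scale, and 3 were at an unadjusted p under 0.05, all lower, which is 33.3% of the 9, against 9.18% of all genes at that p and lower. Jhedup, an esterase gene of the antenna, had signals of 1206, 1459.5 and 1364 in the GAL4xUAS arrays, against 2000.4, 2190.0 and 1827 in the UAS arrays. Its groups were apart, with a 1.49-fold lower signal in the cross and a log2 fold change of -0.58 (SE 0.15, 95% interval -0.93 to -0.23; limma adjusted p = 0.155). Snmp1 encodes a CD36-related membrane protein that is needed for the detection of the same pheromone as lush. Snmp1 had signals of 879, 1031 and 1288 in the GAL4xUAS arrays, against 1607, 1755 and 1222 in the UAS arrays, with 1 GAL4xUAS array above the lowest UAS array. It was 1.43-fold lower (limma adjusted p = 0.356). Os-C, an antennal secreted protein gene, had signals of 5142, 6614 and 5118 in the GAL4xUAS arrays, against 6889, 7329 and 6445 in the UAS arrays, with a log2 fold change of -0.30 (limma adjusted p = 0.39). The secreted chemosensory proteins a10, EbpIII (named ejaculatory bulb protein III) and Phk-3 had log2 fold changes of -0.16, 0.17 and -0.02. Those of a5, Antdh and Snmp2 were -0.07, -0.27 and 0.03.

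**Figure D5:**
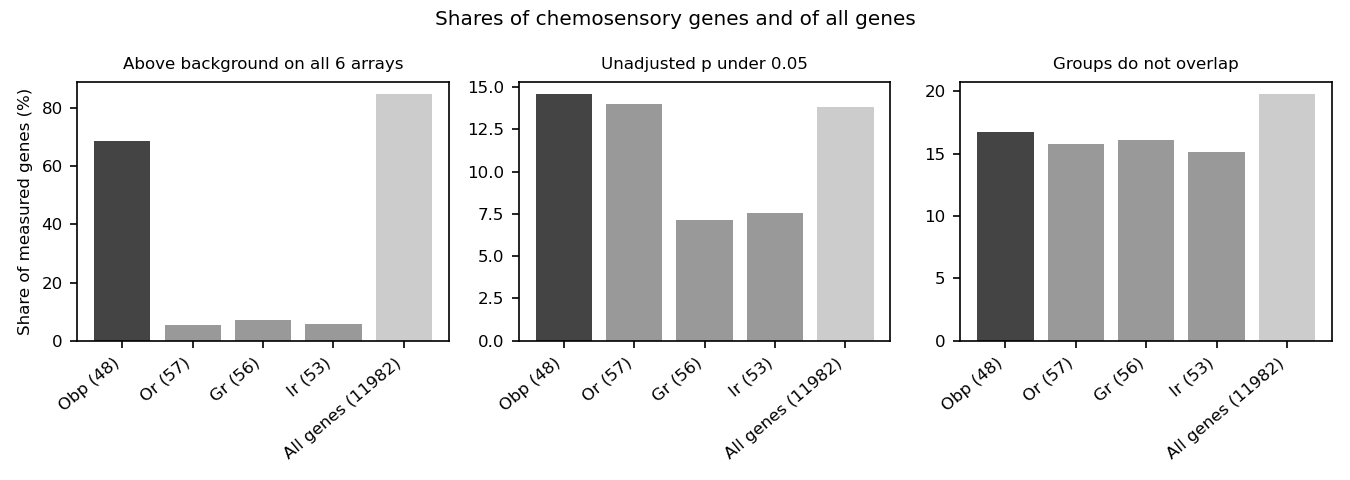
Share of measured genes in percent (y axis, bars from 0) that were above background on all 6 arrays (left), at an unadjusted p under 0.05 (middle) or with groups that do not overlap (right), for Obp, Or, Gr and Ir genes and for all genes (x axis, number measured in brackets). The Obp genes stand at 68.8%, against 5.26%, 7.14% and 5.66% of the receptor families and 85.0% of all genes, in the left panel, and at 14.6% and 16.7%, against 13.8% and 19.8% of all genes, in the others.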

How the data were processed

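Total RNA of 6 samples of whole adult flies, of which 2 ug were biotin-labelled, was hybridised to Affymetrix arrays, per the labels' protocols. Groups and replicate numbers came from the sample titles. The deposited table holds probe set intensities on a linear scale. The software that made them is not given in the sources used here. After trimming 2% at either end, each array averaged 2500.1, a common scale present in the deposited values. The 183 control probe sets were left out, which leaves 18769. By the platform annotation 13647 had 1 gene symbol, 402 several and 4720 none. Of the first, 13544 matched the Release 6 gene table, which gave current names, arms and gene order.

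Where a gene had several probe sets, as 3 members did, the brightest by mean log2 signal was used. Log2(signal + 1) was tested with limma 3.58.1 in R 4.3.3 (trended, robust prior, 2-sided, adjusted p of 0.05). The fit was also run on data simulated from its own fitted variances, without array effects. Such data cannot show whether this prior suits the real arrays. A pseudocount shrinks the fold changes of low signals, and that of Obp58b was -1.62 on the log2 scale, and -1.22 with a pseudocount of 16. Fold changes of dim genes also have wide intervals, so they are not lower limits of a change. A gene at or below background on every array of 1 group has only a bound.

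The members, the lists and the choice of the trended prior were made with earlier results of these data known, so counts are set beside those of all genes and no list was tested. All members were to be named, with every array given for those at an unadjusted p under 0.05, with groups apart, or on the antennal and seminal lists, and the 3 of largest SD. The alternatives covered scaling, pseudocount, dim probe sets, prior, replicate block, probe sets that read several transcripts, several probe sets of a gene and each array left out.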

Additional observations from a re-analysis of the deposited data

How the results depend on the processing

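The settings varied were the scaling (quantile or median), the pseudocount (16), the prior (constant, or trended without robust weights), the replicate block, the removal of dim probe sets, of probe sets shared by transcripts or of 1 array, and the mean over the probe sets of a gene. No member passed in any of these except Obp56a under median centring, where 1 member passed. The count of all probe sets past the test, 147, was 0 with the constant prior, 81 without probe sets that read several transcripts and 8 with the replicate block, and ranged from 7 (without UAS replicate 1) to 225 (without UAS replicate 3) with 1 array left out. It was also 11 without GAL4xUAS replicate 1, 20 without UAS replicate 2 and 96 without GAL4xUAS replicate 3. With the replicate block no member passed, and the smallest member adjusted p was 0.177. At an unadjusted p under 0.05 there were then 7 members, against 11.8% of all genes. Deviations of same-numbered samples from their group means correlated at -0.022, 0.001 and -0.097, and those of differently numbered samples at -0.072 to 0.089. Taken over all probe sets, this measure cannot exclude a batch shared by some replicates or some genes. Members with groups apart numbered 8 to 14 with 1 array left out, 13 without UAS replicate 2 and 14 without UAS replicate 3, where fewer arrays have to be apart, as they do for 26.1% and 41.2% of all genes. Members at an unadjusted p under 0.05 numbered 5 to 10 of 48. There were 5 with median centring, against 12.3% of all genes. There were 10 without GAL4xUAS replicate 3 and 10 without UAS replicate 2, against 15.0% and 9.06% of all genes. The median over all members, -0.07, was -0.02 with median centring and ranged from -0.09 to 0.01 with 1 array left out, so its sign is not stable. That of the Plus-C genes, -0.30, was -0.05 without the dim probe sets, where 1 gene was left, and ranged from -0.70 to -0.02. The seminal median ranged from 0.01 to 0.40 and the antennal one from -0.10 to 0.02 with 1 array left out, with 0.04 under quantile scaling. The 8 members with groups apart kept their sign in every alternative that held them. No scaling moved the median of all genes by more than 0.05. For moves that no value here explains, the cause was not tested.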
